A study of Mus musculus with 22 samples.

Results

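The genes described here are the 10 mouse genes of major histocompatibility complex (MHC) class II antigen presentation, chosen by symbol: H2-Aa, H2-Ab1, H2-Eb1, H2-DMa, H2-DMb1, H2-DMb2, H2-Oa, H2-Ob, Cd74 and Ciita. All 10 were found among the 52636 genes of the files. Bulk RNA sequencing covered 22 mouse libraries in 6 groups. The renal capsule, the fibrous envelope of the kidney, was sampled as whole tissue from young and from aged mice, with 3 libraries each. The remaining groups held 4 libraries each, namely capsule macrophages, kidney macrophages, and RCAM libraries of young and of aged mice. No library had a treatment, and the labels give no strain, genotype, sex or age in weeks. The capsule and kidney macrophages carry no age in their titles. RCAM is not spelled out in the labels, which list whole tissue as its cell type, whereas the series text speaks of capsules sorted by flow cytometry for macrophages without naming a gate. Nothing says that the libraries of a group came from separate animals, so p-values measure the spread between these libraries, which may be technical.

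Class II molecules are pairs of an alpha and a beta chain that carry peptides from the endosome to the cell surface, where CD4 T cells read them. The invariant chain Cd74 fills the groove of a new class II pair until H2-DM exchanges the remaining fragment for a peptide, and H2-DO restrains H2-DM. Ciita is the coactivator that switches these genes on by docking to factors bound at the X and Y boxes of their promoters. Macrophages, dendritic cells and B cells are the main cells that present antigen on class II, and resident kidney macrophages are known for high class II.

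Young tissue libraries held 20.6 to 22.2 M (1e6) counts and aged ones 27.1 to 43.2 M. Macrophage libraries held 39.3 to 53.4 M (capsule) and 31.8 to 49.9 M (kidney), and RCAM libraries 49.8 to 54.4 M (young) and 45.0 to 51.8 M (aged). Levels are given as counts per 1e6 counts of a library (CPM). The 15 genes of a pan-macrophage list summed to 38481 to 42940 CPM in the 8 RCAM libraries, to 37227 to 40931 CPM in capsule macrophages, to 28669 to 31556 CPM in kidney macrophages and to 2172 to 10930 CPM in capsule tissue. For Itgam, 1 gene of this list, 0 to 0.992 CPM give no level, since 99.92% of its span lies inside same-strand genes. By the list as a whole the RCAM libraries lay near the sorted macrophages and apart from the whole tissue that their label names. In both the tissue and the sorted libraries, fewer cells of a type and less RNA per cell cannot be told apart. The labels describe a stranded kit for 100 ng of RNA and another for low input (2 ng) without saying which library had which, so a difference between tissue and the other libraries cannot be told apart from a difference of kit.

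A limit of the counts bears on 2 of the 10 genes. H2-Oa had 82 to 214 counts in each of the 6 tissue libraries and 0 counts in each of the 16 macrophage and RCAM libraries. Its whole span lies inside the span of BC051537, a gene annotated on the opposite strand. Of 316 genes with at least 82 counts in every tissue library and a span wholly inside opposite-strand gene spans, 266 (84.2%) had 0 counts in all 16 macrophage and RCAM libraries. Of 6348 genes with no opposite-strand overlap, 2 did (0.0315%). The 0 counts of H2-Oa thus give no level for this gene outside the tissue libraries. Ciita shares 53.53% of its span with the opposite-strand gene Dexi. For the 309 genes with an overlap of over 50% but short of the whole span, the median log2 ratio of mean CPM in the 16 libraries over the tissue libraries (0.1 CPM added) was -1.68, against -0.20 without overlap. Ciita is therefore compared among the 16 libraries and within tissue, and its values on both sides of that divide are given without a reading. H2-DMa and H2-Eb1 shared 19.07% and 20.39% of their spans with opposite-strand genes, and the other 6 genes shared none.

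The genes lie in 3 places of the GRCm38 genome. From H2-Oa to H2-Eb1, 8 of them sit in the class II region of chromosome 17, between 34092340 and 34316674. Ciita (ENSMUSG00000022504) lies on chromosome 16 from 10480059 to 10528418, and the place of Cd74 is given with its values. A promoter window of RefSeq (build GRCm38.p6, 250 bases before to 50 bases after the gene start) was matched for 7 of the 10 genes. The promoter stretches of 6 of them are shown because their X and Y boxes are where the Ciita complex docks, and their letters can be compared gene by gene. Capitals mark the letters CNNNNAAC, used for the X box, and TGATTGG, used for the Y box, with 23 to 27 bases between them. These letters and the spacing were set after reading these same stretches, so the number of members that hold them follows from that choice. The H2-Aa stretch is chr17:34287857-34287917 on the minus strand. On the plus strand are H2-Eb1 (chr17:34305763-34305822), H2-DMb1 (chr17:34153084-34153144), H2-DMb2 (chr17:34145113-34145173), H2-Oa (chr17:34092290-34092350) and H2-Ob (chr17:34238805-34238862).
H2-Aa: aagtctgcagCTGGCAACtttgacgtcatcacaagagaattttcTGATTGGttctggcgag
H2-Eb1: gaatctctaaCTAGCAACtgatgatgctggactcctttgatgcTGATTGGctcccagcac
H2-DMb1: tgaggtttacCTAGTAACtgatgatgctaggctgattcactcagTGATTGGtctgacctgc
H2-DMb2: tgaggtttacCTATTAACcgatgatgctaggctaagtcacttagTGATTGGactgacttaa
H2-Oa: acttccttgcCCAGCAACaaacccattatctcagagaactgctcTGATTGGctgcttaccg
H2-Ob: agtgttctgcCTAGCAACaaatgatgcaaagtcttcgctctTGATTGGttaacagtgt
All 6 stretches carry the same Y box letters, which start 45 to 92 bases before the gene start. H2-DMb1 and H2-DMb2, neighbouring copies of the DM beta chain gene, have the same base at 52 of the 61 positions of the stretch. Their X box letters are CTAGTAAC and CTATTAAC. The pair of H2-DMa windows held no Y box letters on either strand, and the X box letters were not searched on their own. The Y box letters, searched on both strands, were in 2568 of all 32851 windows of the RefSeq table (7.82%), and the X box letters followed by a Y box at that spacing were in 49 (0.149%). A match is a string of letters and not a measured site.

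Class II transcripts took a far larger share of the counts in macrophage libraries than in tissue. The 10 genes together held 13.9% ± 1.17 (SD, n = 4) of all counts in kidney macrophages, 7.35% ± 0.999 (n = 4) in capsule macrophages, 5.57% ± 0.336 (n = 4) in young RCAM and 5.28% ± 0.771 (n = 4) in aged RCAM libraries. Capsule tissue gave 0.414% ± 0.146 (n = 3) in young and 0.514% ± 0.116 (n = 3) in aged mice. The kidney macrophage libraries, at 12.8 to 15.5%, did not overlap the capsule macrophages, at 5.94 to 8.29%. Young and aged RCAM libraries overlapped. On a per-length scale (CPM per kb of annotated exon), Cd74 led in kidney macrophages with 43196 ± 2956, followed by the classical chains H2-Ab1 with 12256 ± 1333, H2-Eb1 with 8449 ± 973 and H2-Aa with 4106 ± 358 (SD, n = 4). The editors of peptide loading stood far below on that scale, with H2-DMb1 at 646 ± 49.9, H2-DMa at 337 ± 43.0, H2-DMb2 at 28.6 ± 6.55 and H2-Ob at 28.0 ± 1.30 CPM per kb. Ciita had the lowest level of those detected there, 3.82 ± 0.391 CPM per kb.

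**Figure D1:**
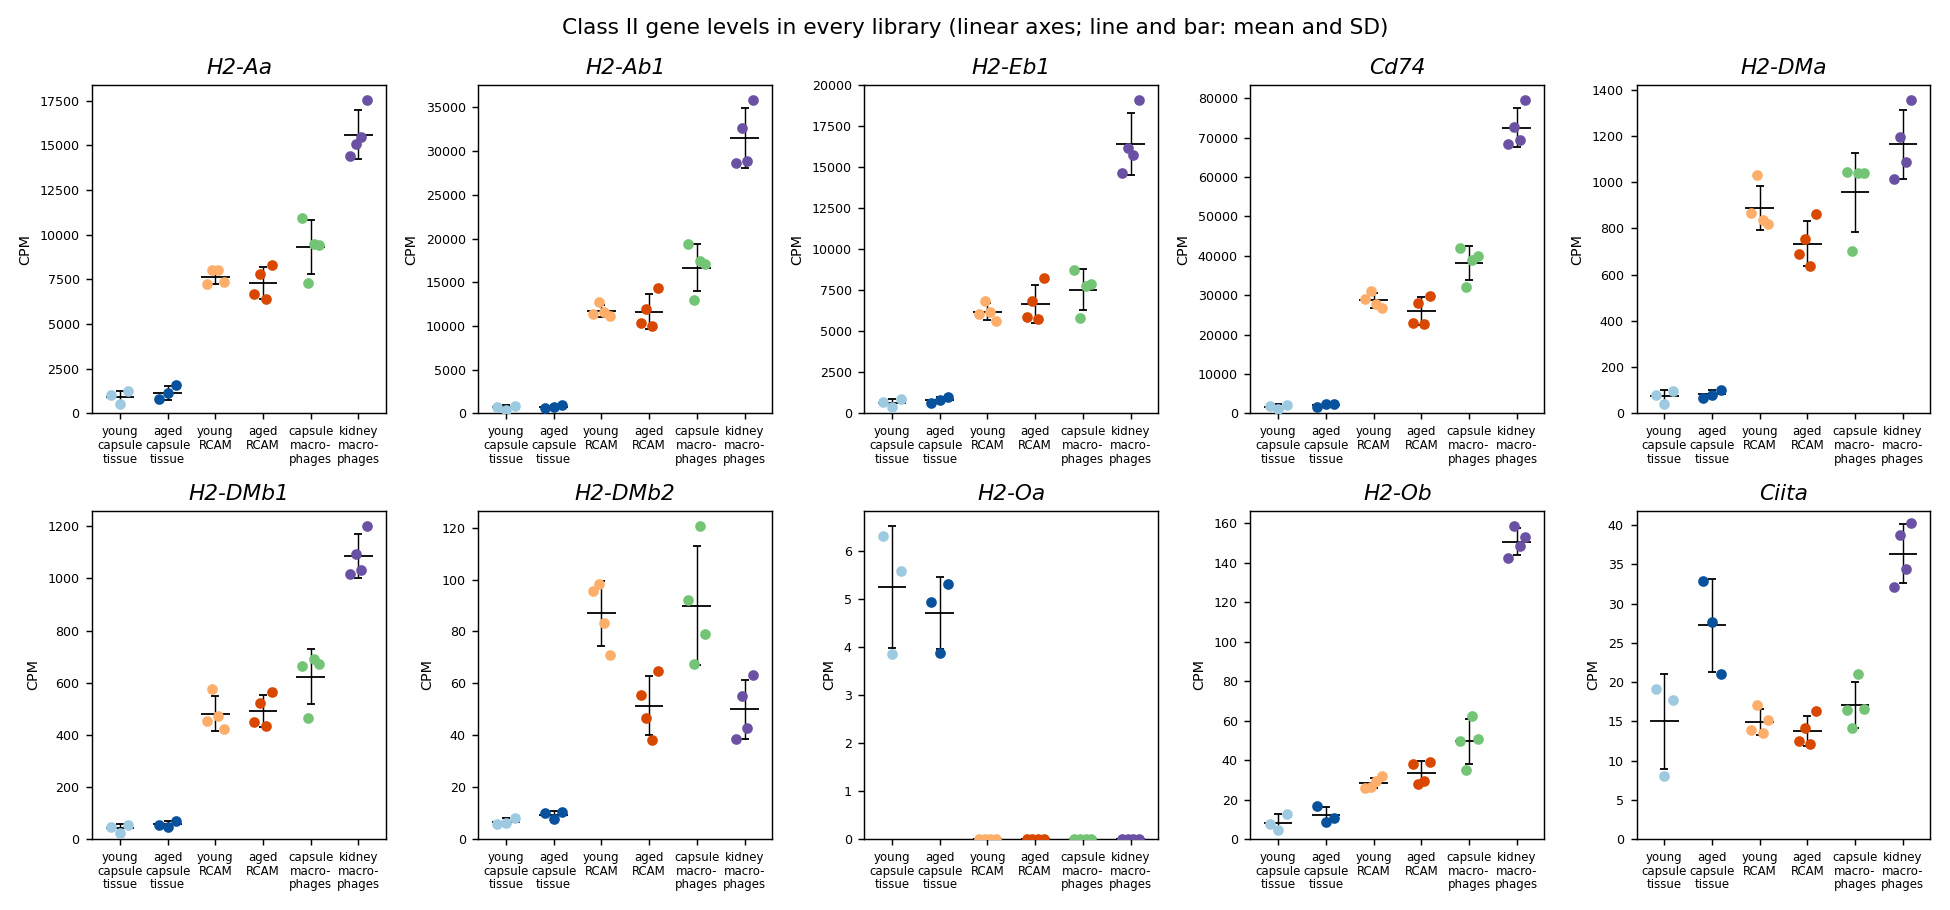
CPM of each of the 10 class II genes (1 panel per gene, linear axis) in every library of the 6 groups, with lines and bars for the mean and SD (n = 3 in tissue, n = 4 elsewhere). Kidney macrophages have the highest mean for 8 genes and capsule macrophages for H2-DMb2. The 8 include Ciita, whose tissue values are not read against those of the other libraries. The 0 values of H2-Oa in 16 libraries are no level, because its span lies inside an opposite-strand gene.

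The first comparison asked how class II transcripts differed between macrophages of the capsule and macrophages of the kidney. Of the 9 genes tested, 7 were lower and 1 higher in capsule macrophages. Across all 15701 genes tested, 55.4% were called, 28.2% lower and 27.3% higher, so a call was common in this comparison. The median log2 fold change of the members was -0.71, against -0.03 for all genes tested.

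Cd74 (ENSMUSG00000024610, chromosome 18 from 60803848 to 60812652), the chaperone that guards the groove, had 41960, 32087, 38857 and 40060 CPM in capsule macrophages. In kidney macrophages it had 68424, 72766, 69478 and 79434 CPM. The groups did not overlap, and Cd74 was lower in the capsule (log2 fold change -0.71 ± 0.10, SE, edgeR adjusted p = 0.000138). The classical chains fell as well. H2-Eb1, a beta chain, had 8769, 5795, 7754 and 7890 CPM in capsule and 14663, 16200, 15746 and 19095 CPM in kidney macrophages, and its log2 fold change was -0.91 ± 0.14 (edgeR adjusted p = 0.00024). All 4 capsule libraries stood below all 4 kidney libraries. H2-Ab1, the other beta chain, changed by -0.71 ± 0.13 and H2-Aa, its alpha partner, by -0.54 ± 0.12 (edgeR adjusted p = 0.00103 and 0.00371), each without overlap of the groups. H2-Ea-ps, annotated as a pseudogene of the E alpha chain that would pair with the H2-Eb1 product, was at 0 to 0.0696 CPM over all 22 libraries.

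The DM genes split. H2-DMb1, the major DM beta chain gene by counts, fell with the classical chains, from 1017 to 1201 CPM in kidney to 465 to 690 CPM in capsule macrophages (log2 fold change -0.59 ± 0.13, edgeR adjusted p = 0.00286). Its neighbour H2-DMb2 had 92.0, 67.4, 121 and 79.2 CPM in capsule against 38.5, 55.2, 42.7 and 63.4 CPM in kidney macrophages. All capsule libraries were above all kidney libraries, although the closest pair was 67.4 and 63.4 CPM, and the log2 fold change was 1.05 ± 0.21 (edgeR adjusted p = 0.00162). H2-DMa, the alpha chain shared by both, had 1045, 700, 1039 and 1041 CPM against 1014, 1196, 1088 and 1355 CPM. These groups overlapped, and the log2 fold change of -0.08 ± 0.15 did not pass (edgeR adjusted p = 0.688, 95% interval -0.41 to 0.25). H2-DMb2 thus made up 12.6% ± 1.79 of the H2-DMb1 and H2-DMb2 counts in capsule macrophages and 4.36% ± 0.652 in kidney macrophages (SD, n = 4). Of the distinct 50-base windows in the annotated transcripts of H2-DMb1, 22.7% also occur in those of H2-DMb2, and 21.2% the other way round, so reads of 50 bp from those stretches could be counted for either gene and the split is uncertain to that extent.

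H2-Ob, the beta chain of the DM inhibitor H2-DO, had the log2 fold change of largest size among the 9 genes. It had 49.8, 35.0, 62.4 and 50.97 CPM in capsule and 142, 159, 149 and 153 CPM in kidney macrophages. The groups were far apart, and the log2 fold change was -1.40 ± 0.15 (edgeR adjusted p = 2.54e-05). Per 100 counts of the DM genes there were 2.95 ± 0.280 H2-Ob counts in capsule and 6.59 ± 0.496 in kidney macrophages (SD, n = 4), ranges that did not overlap. Ciita had 16.4, 14.1, 21.1 and 16.6 CPM in capsule and 32.2, 38.7, 34.4 and 40.2 CPM in kidney macrophages. All capsule libraries lay below all kidney libraries, and the log2 fold change was -0.89 ± 0.14 (edgeR adjusted p = 0.000435). Relative to the transcripts it drives, Ciita stood at 0.513 ± 0.0809 counts per 1000 counts of H2-Aa, H2-Ab1 and H2-Eb1 in capsule and 0.573 ± 0.0231 in kidney macrophages, and these ranges overlapped.

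**Figure D2:**
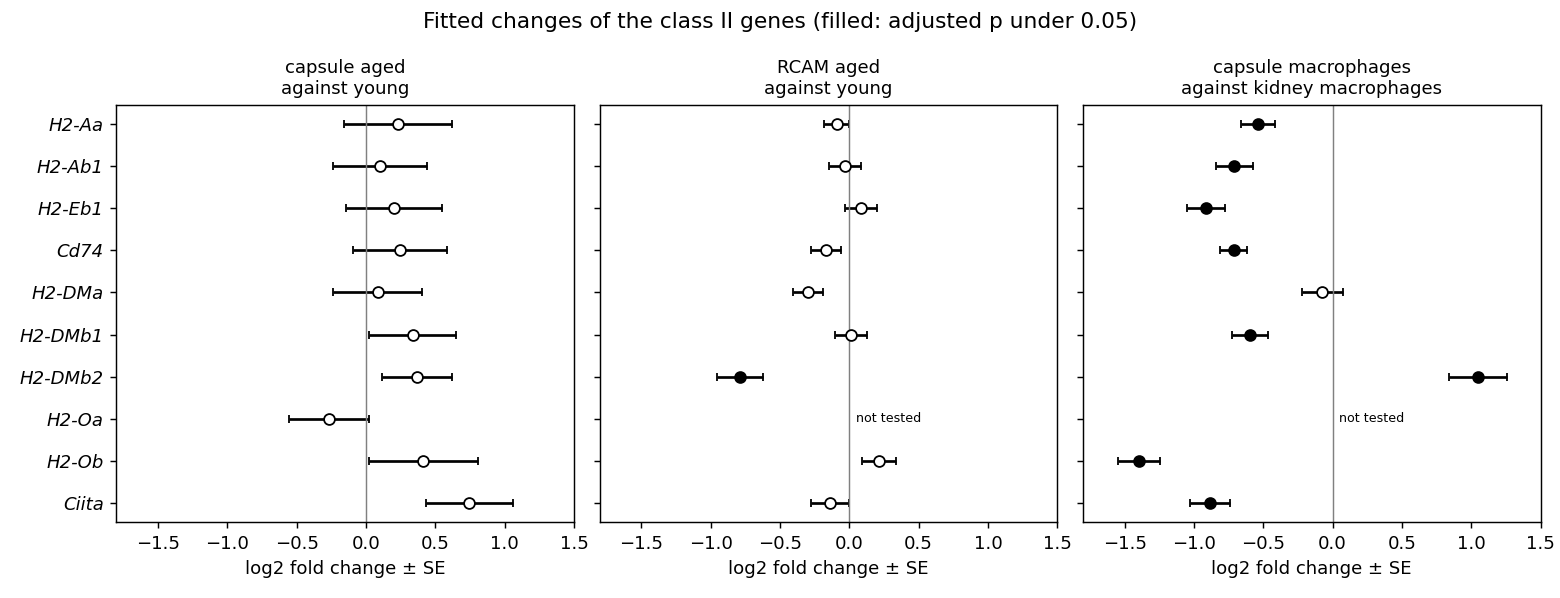
Fitted log2 fold change of each class II gene with its SE, for aged against young capsule tissue, aged against young RCAM libraries, and capsule against kidney macrophages (filled points: adjusted p under 0.05). In the macrophage comparison 7 genes lie to the left and H2-DMb2 to the right, H2-DMb2 is the filled point among RCAM libraries, and tissue has no filled point.

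Cell type markers also differed between capsule and kidney macrophages, in unlike directions. Among all genes tested, 27.3% were called higher and 28.2% lower in capsule macrophages, the shares to set beside the counts below. Of the 15 pan-macrophage genes, Itgam counted among them, 12 were higher and 1 lower in capsule macrophages. Class II and most macrophage transcripts thus went in unlike directions. The 10 class II genes summed to 1.88 ± 0.289 times the pan-macrophage sum in capsule macrophages and to 4.64 ± 0.217 times in kidney macrophages (SD, n = 4). Markers of conventional dendritic cells summed to 606 to 990 CPM in capsule and 670 to 841 CPM in kidney macrophages, with 5 of 10 genes higher and 2 lower in the capsule. Fscn1 and Ccr7, markers of mature dendritic cells, were higher there (log2 fold change 2.88 and 1.71), as were Xcr1 (1.31), Zbtb46 (1.01) and Itgae (0.89), while Clec9a (-2.01) and Dpp4 (-1.34) were lower. Xcr1 and Clec9a, both receptors of cross-presenting dendritic cells, thus went in unlike directions, with 19.3 to 51.7 CPM in capsule and 10.99 to 23.1 CPM in kidney macrophages for Xcr1 and 7.67 to 20.8 against 56.4 to 74.04 CPM for Clec9a. B cell markers summed to 89.8 to 113 CPM in capsule and 91.8 to 114 CPM in kidney macrophages, with 3 of 6 genes tested lower in the capsule and 1 higher. Pax5 was at 0 in kidney macrophages, and the 0 counts of Ms4a1 give no level, since its whole span lies inside an opposite-strand gene. Kidney tubule markers summed to 9.66 to 75.2 CPM in capsule and 769 to 1190 CPM in kidney macrophages. The part of these cells in the class II difference was not tested.

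The rest of the pathway did not follow the class II genes in 1 direction. Of its 28 genes tested, 10 were higher and 9 lower in the capsule. Among all genes tested, 27.3% were higher and 28.2% lower, so calls in both directions were common. Of 7 genes of the complex that binds the X and Y boxes, Nfyc (log2 fold change -1.09) and Creb1 (-0.66) were lower and Rfxank (0.57) higher in capsule macrophages. The defining X box factor Rfx5 did not pass (0.11, edgeR adjusted p = 0.615). Of 6 endosomal enzymes, 4 were higher in the capsule. Ctsd (2.81), Ctsl (2.14) and Ctsb (1.69), proteases of the lysosome, and Ifi30 (0.61), the thiol reductase that unfolds antigens, were higher. Ctss, the protease that trims the invariant chain in macrophages and dendritic cells, was lower by a log2 fold change of -1.28, from 4532 ± 377 CPM in kidney to 1615 ± 126 CPM in capsule macrophages (SD, n = 4). Of 3 turnover genes, March8 (0.94), a ligase that removes surface proteins, was higher, and March1 (-0.42), the ligase that removes class II from the surface, and Cd83 (-0.97), which counters March1, were lower. Of 4 costimulatory genes tested, Cd40 (1.18) and Cd80 (0.56) were higher, and Icosl (-1.36) and Cd86 (-0.55) lower. Of 7 interferon gamma pathway genes tested, Jak1 (0.87) and the inhibitor Socs1 (0.98) were higher and the receptor chains Ifngr2 (-0.72) and Ifngr1 (-0.25) lower. Irf8, another gene of that list, was at 0 in all 22 libraries, and its whole span lies inside another gene of the same strand, so no level is given.

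The second comparison asked what changed with age among the RCAM libraries. Of the 9 genes tested, H2-DMb2 was lower in aged RCAM libraries and the other 8 did not pass, where 4.8% of all 15182 genes were called, 1.38% lower and 3.43% higher. The members had a median log2 fold change of -0.09, against -0.01 for all genes tested. The classical chains, the invariant chain and Ciita had overlapping ranges.

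H2-DMb2 had 95.5, 98.1, 83.3 and 70.9 CPM in young RCAM libraries and 55.5, 46.8, 38.3 and 64.7 CPM in aged ones. Every young library was above every aged library. The log2 fold change was -0.79 ± 0.16 (edgeR adjusted p = 0.0233, 95% interval -1.15 to -0.43). The adjusted p rose past the threshold when young replicate 1 (0.0576), young replicate 2 (0.0632) or aged replicate 2 (0.0587) was left out, and with the replicate number as a block (0.0608). The share of H2-DMb2 in the counts of both DM beta genes was 17.4%, 14.5%, 15.01% and 14.4% in young and 11.01%, 8.21%, 8.09% and 10.3% in aged libraries. These shares did not overlap, while H2-DMb1 itself had 421 to 577 CPM in young and 435 to 565 CPM in aged libraries (log2 fold change 0.01 ± 0.12, edgeR adjusted p = 0.971).

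H2-DMa, the partner of both beta chains, had 866, 1029, 835 and 820 CPM in young and 689, 752, 636 and 862 CPM in aged RCAM libraries. The ranges overlapped through aged replicate 4, and the log2 fold change of -0.30 ± 0.11 did not pass (edgeR adjusted p = 0.182, unadjusted p = 0.0217). Cd74 had 28910, 31039, 27792 and 26864 CPM in young and 22956, 28107, 22775 and 29843 CPM in aged libraries, and its log2 fold change was -0.17 ± 0.11 (edgeR adjusted p = 0.48). Aged replicates 2 and 4 lay within the young range. As a share of the summed counts of Cd74, H2-Aa, H2-Ab1 and H2-Eb1, Cd74 took 51.9 to 54.0% in young and 49.2 to 51.4% in aged RCAM libraries, shares that did not overlap although the difference was small.

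The classical chains did not pass. The 95% interval of the log2 fold change ran from -0.29 to 0.11 for H2-Aa, from -0.28 to 0.22 for H2-Ab1 and from -0.18 to 0.35 for H2-Eb1. H2-Ob (0.22 ± 0.12) and Ciita (-0.14 ± 0.14) did not pass either (edgeR adjusted p = 0.419 and 0.695). Ciita had 13.9, 17.1, 13.5 and 15.2 CPM in young and 12.6, 14.2, 12.1 and 16.3 CPM in aged RCAM libraries, which overlapped. Of 28 further genes of the pathway tested, edgeR called 0 with age in RCAM libraries, and 9 had an unadjusted p under 0.05, as did 17.4% of all genes tested.

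**Figure D3:**
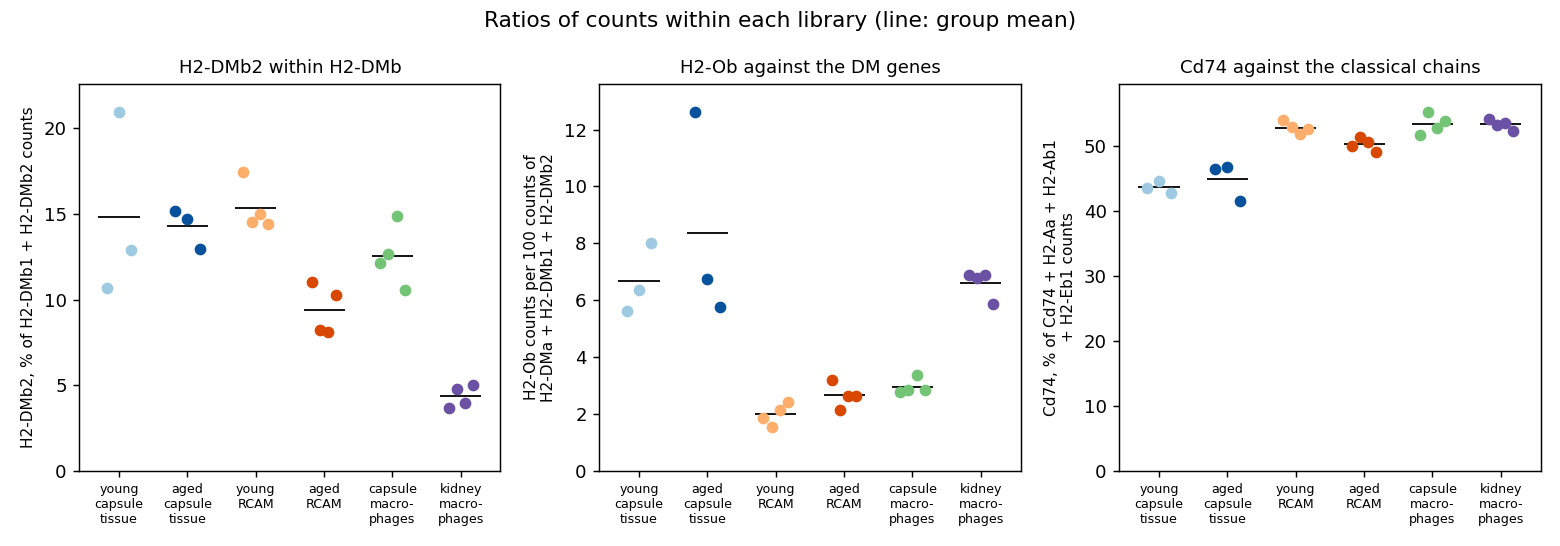
H2-DMb2 as a percent of the H2-DMb1 and H2-DMb2 counts (left), H2-Ob counts per 100 DM counts (middle) and Cd74 as a percent of the Cd74 and classical chain counts (right) in each library, with a line at the group mean. The H2-DMb2 share is lowest in kidney macrophages (3.65 to 5.02%), and the aged RCAM libraries (8.09 to 11.01%) lie below the young ones (14.4 to 17.4%).

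Markers of other cells differed between the same RCAM groups. Of 7 B cell genes tested, Cd22, Cd79b and Cd79a were higher in aged libraries (log2 fold change 2.66, 0.91 and 1.87, edgeR adjusted p = 0.00276, 0.0307 and 0.0447). Cd22 had 1.38 to 4.26 CPM in young and 16.5 to 26.3 CPM in aged libraries. The B cell list summed to 93.8 to 118 CPM in young and 110 to 140 CPM in aged RCAM libraries, and the 0 counts of Ms4a1, a defining B cell marker, give no level here either. Of 8 plasma cell genes, Jchain and Mzb1, which serve antibody assembly, were higher in aged libraries and Irf4 was lower. Jchain had 0 to 0.235 CPM in young and 33.0 to 234 CPM in aged libraries (edgeR adjusted p = 0.000861), and Mzb1 had 0 CPM in all young and 0.756 to 4.50 CPM in aged ones (edgeR adjusted p = 0.00796). The adipocyte gene Fabp4 was higher as well, at 12.2 to 16.6 CPM in young against 27.6 to 53.4 CPM (log2 fold change 1.496, edgeR adjusted p = 0.00333). T cell markers summed to 35.4 to 46.2 CPM in young and 55.9 to 80.2 CPM in aged libraries, without overlap. In young libraries Cd4 alone made up most of this sum, with a mean of 35.2 CPM. Cd3d, Cd3e and Cd3g had means of 0.369, 0.0477 and 0.138 CPM there, so the sum is no measure of T cells. Of 6 T cell genes tested, edgeR called 0, and 2 had an unadjusted p under 0.05 (17.4% of all genes tested did). The dendritic cell list summed to 430 to 475 CPM in young and 480 to 595 CPM in aged libraries, with 0 of 10 genes called by edgeR and 6 at an unadjusted p under 0.05. The pan-macrophage list had 0 of 15 genes called and 1 at an unadjusted p under 0.05. The part of any of these cells in the class II values was not tested.

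The third comparison asked what changed with age in whole capsule tissue. No class II gene was called by edgeR, 1 of 10 (Ciita) had an unadjusted p under 0.05 (22.5% of all genes tested did), and DESeq2 called 0, where edgeR called 0.239% of all 16350 genes tested, 0.153% higher and 0.0856% lower. Of the 10 fitted changes, 9 were positive, as were 8652 of all 16350 genes tested. The median log2 fold change was 0.24, against 0.03 for all genes tested. Ciita had 19.2, 8.03 and 17.8 CPM in young and 32.9, 27.7 and 21.1 CPM in aged capsules. Its groups did not overlap, but the share of all genes without overlap was not counted. The log2 fold change of 0.75 ± 0.31 did not pass after adjustment (edgeR adjusted p = 0.21, 95% interval 0.02 to 1.47).

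Cd74 had 1898, 1092 and 2213 CPM in young and 1735, 2374 and 2500 CPM in aged capsules. H2-Aa had 1009, 548 and 1228 CPM in young and 788, 1117 and 1573 CPM in aged capsules. Both sets overlapped, and young replicate 2 was the lowest library for each. H2-Oa had 6.31, 3.85 and 5.59 CPM in young and 4.95, 3.88 and 5.32 CPM in aged capsules, the single member with a negative value (log2 fold change -0.26 ± 0.29, edgeR adjusted p = 0.629). H2-Ob, its partner, had 7.58, 4.51 and 12.8 CPM in young and 16.8, 8.91 and 10.6 CPM in aged capsules. Its log2 fold change was 0.41 ± 0.39, and those of the other members ran from 0.08 to 0.37, each with a 95% interval that included 0. Of 28 further genes of the pathway tested, edgeR called 0, and 6 had an unadjusted p under 0.05, as did 22.5% of all genes tested.

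Markers of several cell types differed between the same tissue groups. The pan-macrophage sum was 3280, 2172 and 4344 CPM in young and 5975, 4420 and 10930 CPM in aged capsules, without overlap. EdgeR called 0 of 14 genes tested, and 7 had an unadjusted p under 0.05 (22.5% of all genes tested did). Per unit of the pan-macrophage sum, class II stood at 1.38, 1.17 and 1.24 in young and 0.656, 1.19 and 0.571 in aged libraries. Aged replicates 1 and 3 lay below the young range and aged replicate 2 inside it. B cell markers summed to 25.6 to 41.8 CPM in young and 86.8 to 126 CPM in aged capsules, and Cd22 and Cd79a were called higher. T cell markers summed to 20.2 to 41.6 CPM in young and 80.5 to 127 CPM in aged capsules. EdgeR called 0 of 9 T cell genes, and 9 had an unadjusted p under 0.05. Plasma cell markers summed to 337 to 497 and 694 to 1206 CPM, with 2 of 8 genes called higher (0.153% of all genes were). Kidney tubule markers summed to 1331 to 5298 and 405 to 1268 CPM, with 0 of 8 called. Adrenal transcripts marked both second replicates, at 179 CPM (young) and 5919 CPM (aged), and without this pair the log2 fold changes of H2-Aa, H2-Ab1, H2-Eb1, H2-DMa and Cd74 were -0.01, -0.13, -0.08, -0.16 and -0.05. The part of these cells in the class II values was not tested.

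**Figure D4:**
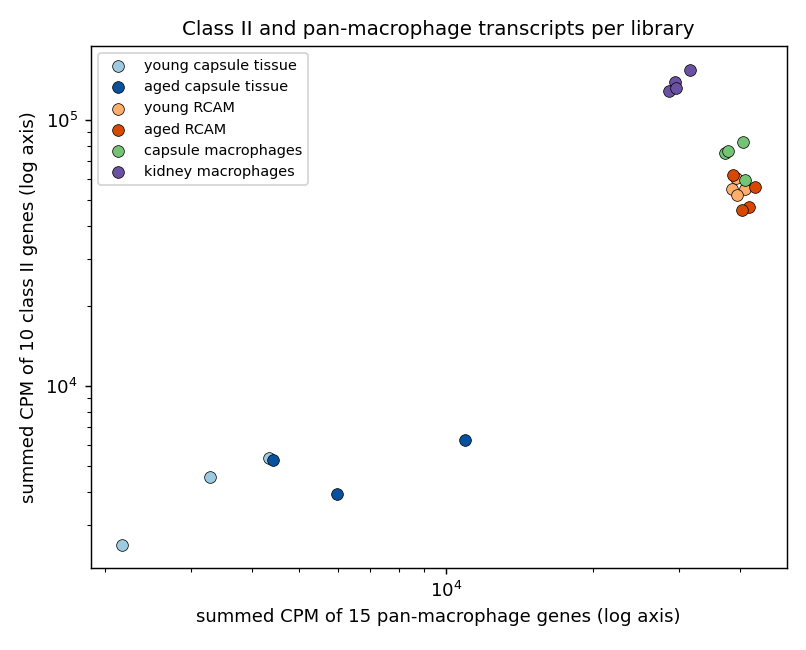
Summed CPM of the 10 class II genes against the summed CPM of 15 pan-macrophage genes in each library, both axes on a log scale. The 4 kidney macrophage libraries stand above the others in class II at a lower pan-macrophage sum, RCAM libraries lie beside capsule macrophages, and the 6 tissue libraries lie at the lower left.

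A single fit over capsule tissue and RCAM libraries set the groups of equal age side by side. Of the 10 genes, 8 were higher in young RCAM libraries than in young tissue and 8 in aged RCAM libraries than in aged tissue, where 34.6% and 34.1% of all 18856 genes were called higher and 40.3% and 36.9% lower. In all, 74.9% and 71% of genes were called in either direction. H2-Ab1 (4.42 ± 0.29) and Cd74 (4.36 ± 0.28) had the largest log2 fold changes in the young groups, and H2-Ob (2.09 ± 0.29) the smallest of the 8. In the aged groups H2-Ab1 had 4.33 ± 0.29, Cd74 3.98 ± 0.27 and H2-Ob 1.93 ± 0.29. The balance of the transcripts also differed. Cd74 took 41.5 to 46.8% of the Cd74 and classical chain counts in tissue and 49.2 to 55.2% in the other 16 libraries. With DESeq2 size factors in place of TMM the members' values shifted by a median of -0.18 in the young and -0.22 in the aged groups. H2-Oa passed as lower in both, on the 0 counts described above. Ciita had log2 fold changes of 0.31 ± 0.24 (edgeR adjusted p = 0.243) in the young and -0.53 ± 0.23 (0.0548) in the aged groups. The aged value passed as lower with DESeq2 size factors (-0.76, edgeR adjusted p = 0.0126), by DESeq2 (0.0057), without aged tissue replicate 3 (0.0387) and without aged RCAM replicate 4 (0.0457). These Ciita values cross the divide between tissue and the other libraries, so they are given without a reading.

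The same fit tested whether the age difference in RCAM libraries was unlike that in tissue. H2-DMb2 was the single member called, with a difference of -1.12 ± 0.28 between the 2 log2 fold changes (edgeR adjusted p = 0.0373), where 5.05% of genes were called, 1.93% with a negative and 3.12% with a positive difference. Its own changes were -0.79 in RCAM libraries and 0.37 in tissue, each from its own comparison. The call was lost with the replicate block (0.0686) and in 9 of 14 fits that left out 1 library, where the difference ran from -1.29 to -0.999. Among the pathway genes, Cd80 was called as well (-0.74, edgeR adjusted p = 0.0447). The Ciita difference of -0.84 ± 0.33 did not pass (edgeR adjusted p = 0.151).

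Across groups, the order of levels was alike for most members. Kidney macrophages were highest and apart from the next group, capsule macrophages, for H2-Aa, H2-Ab1, H2-Eb1, Cd74, H2-DMb1 and H2-Ob. Capsule macrophages overlapped 1 or both RCAM groups for all of these but Cd74, and young and aged RCAM libraries overlapped each other. For H2-DMa, neighbouring groups overlapped from kidney macrophages down to aged RCAM libraries. H2-DMb2 alone was highest in capsule macrophages and young RCAM libraries, which overlapped, and both were apart from the overlapping aged RCAM libraries and kidney macrophages. Aged and young tissue overlapped and were lowest for each of these 8 genes.

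Over the 16 macrophage and RCAM libraries, the members' log2(CPM + 1) values followed the mean of H2-Aa, H2-Ab1, H2-Eb1 and Cd74 with Pearson's r of 0.988 for H2-DMb1, 0.973 for Ciita, 0.963 for H2-Ob and 0.851 for H2-DMa. H2-DMb2 had -0.25. These libraries fall into separate groups and share their library totals, so the r values describe the groups more than single libraries and carry no test. Among 9044 other genes whose mean log2(CPM + 1) was 3 or more, the highest r to that profile belonged to Plbd1 (0.989), Runx3 (0.988), Clasrp (0.985), Ramp1 (0.980) and Ppfia4 (0.976). Over all 22 libraries, with 9382 genes and the tissue libraries setting much of the spread, they were Cd14 and Gm12892 (0.993 each), Ppfia4 (0.992), Tifab and Smpdl3b (0.991 each).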

How the data were processed

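The authors deposited, per the file headers, 1 table per library with whole-number counts of reads per gene, a gene width and RPKM values, which the authors computed and which were not used here. Per the labels, 50 bp single-end reads were sequenced, and the submitters' processing notes name GRCm38. For aligner, counter and strand setting: not given in the sources used here. Symbols were found for 52403 of 52636 gene identifiers, and spans and exon lengths came from GENCODE M21.

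Counts were fitted with edgeR 4.0.16 in R 4.3.3 (TMM scaling, default expression filter, 2-sided quasi-likelihood F test). The Benjamini-Hochberg adjustment covered every gene tested, and genes with an adjusted p under 0.05 were called. Fits held the groups compared, or 4 groups for RCAM libraries and tissue. CPM used unscaled totals. Fold changes are TMM-scaled, which moved the median log2 fold change by 0.21 in the macrophage comparison, -0.12 in tissue, -0.02 in RCAM libraries, and 0.31 and 0.44 between RCAM libraries and tissue of young and aged mice, against unscaled totals. No fit was run on unscaled totals, but the members called between groups had the same direction in mean CPM. Scripts were tested on simulated counts.

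Named genes were the 10 members, up to 4 genes of smallest p per pathway list, and the 5 genes of most alike profile. The members and lists were chosen with earlier results of these data known. The check of opposite-strand spans was added after the data were seen. Alternatives were DESeq2 1.42.0, DESeq2 size factors, no expression filter, a replicate block, TMM without immunoglobulin, mitochondrial and haemoglobin genes, and leaving out single libraries.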

Additional observations from a re-analysis of the deposited data

Results flagged for a closer look

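Capsule macrophage replicate 2 was flagged for 2 of the DM genes, but it was the lowest of its group for every class II gene detected there. The summed class II level was 59369 CPM in this library, against 75398 to 82889 CPM in the others of its group. H2-DMa was at 700.4 CPM there against 1039 to 1045 CPM in the other 3 libraries, and H2-DMb1 at 465.1 CPM against 665.4 to 690.3 CPM. Leaving it out changed no member's call in the macrophage comparison.

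In the number of H2-Oa and H2-Ob counts per 100 DM counts, where H2-Oa was at 0, capsule macrophage replicate 3 had 3.37 against 2.76 to 2.85 in the others of its group. Kidney macrophage replicate 4 had 5.85 against 6.76 to 6.88. These 4 values came out of 56 checks of single libraries, and chance alone gives about 1 in 20.

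The age difference of H2-DMb2 passed an interaction test between RCAM libraries and tissue (-1.12 on the log2 scale, edgeR adjusted p = 0.0373), but the call did not hold with the replicate block (0.0686) or in 9 of 14 fits that left out 1 library (up to 0.0862). The values that led to it were 70.9 to 98.1 CPM in young and 38.3 to 64.7 CPM in aged RCAM libraries, against 5.73 to 8.20 CPM in young and 7.92 to 10.5 CPM in aged tissue.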

How the results depend on the processing

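The 8 members called between capsule and kidney macrophages and the 8 members called higher in RCAM libraries over tissue held under every alternative run. Genes called with age in tissue (39) numbered 1095 without the filter, 1876 with DESeq2, 2196 with the replicate block, 487 without both second replicates and 0 to 387 without single libraries, yet 0 members passed in any. Without both second replicates H2-Aa was at -0.0097, H2-Ab1 at -0.13, H2-Eb1 at -0.08, H2-DMa at -0.16 and Cd74 at -0.0524. Without single libraries they ran from -0.10 to 0.51, -0.17 to 0.36, -0.0892 to 0.47, -0.22 to 0.37 and -0.0165 to 0.49. With age in RCAM libraries, DESeq2 called 1441 genes, the block 336 with 0 members (H2-DMb2 at -0.80), and leaving out single libraries gave 451 to 629 genes, 0 to 1 members, and ranges of -0.14 to 0.0343 for H2-Ab1, -0.0249 to 0.15 for H2-Eb1 and -0.0481 to 0.12 for H2-DMb1. H2-DMa ran from -0.15 to 0.051 between capsule and kidney macrophages, and Ciita from -0.0271 to 0.51 between young RCAM libraries and tissue. Between aged RCAM libraries and tissue 2 members, H2-Oa and Ciita, were lower with DESeq2 or its size factors, and 1 to 2 without single libraries. Neither gene is read across tissue and the other libraries. For the difference of age effects, DESeq2 called 2355 genes, the block called 0 members, and single libraries left out gave 282 to 1594 genes, 0 to 1 members, and -0.61 to 0.0377 for H2-Aa, -0.38 to 0.14 for H2-Ab1, -0.36 to 0.11 for H2-Eb1 and -0.63 to 0.0232 for H2-Ob. The cause was not tested. TMM over all 22 libraries gave 62149 CPM for the members in young RCAM libraries, against 55686 CPM. Of the single genes' values, 717 were the same, 14 weaker, 4 stronger and 30 of the other sign. Replicate numbers did not clearly pair the samples. Same-numbered tissue libraries correlated at 0.0986, 0.353 and 0.310 in their deviations, each best with its own number, while macrophages had -0.0478 to 0.0357 and RCAM libraries -0.108 to -0.0261. Apart from the 0 counts of H2-Oa in the other libraries, the smallest counts were in tissue. The smallest of a tissue library was 82 for H2-Oa, 96 for H2-Ob, 118 for H2-DMb2 and 171 for Ciita.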

Other observations

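Irf4, a transcription factor of macrophages, dendritic cells and plasma cells that was on the plasma cell list, was higher in the same groups as H2-DMb2 among macrophages (capsule over kidney) and RCAM libraries (young over aged), an observation made after its values were seen. Capsule macrophages had 49.6 to 88.3 CPM, against 18.9 to 22.9 CPM in those of the kidney. Young RCAM libraries had 86.6 to 109 CPM and aged ones 42.3 to 46.5 CPM. Neither pair of groups overlapped. The log2 fold changes were 1.97 ± 0.20 (edgeR adjusted p = 1.67e-05) for capsule against kidney macrophages and -1.13 ± 0.09 (edgeR adjusted p = 0.000474) for aged against young RCAM libraries. In tissue it had 31.2 to 131 CPM (young) and 20.1 to 25.9 CPM (aged), and the log2 fold change of -1.74 ± 0.52 did not pass (edgeR adjusted p = 0.117). The other plasma cell genes called with age in RCAM libraries went the other way, since Jchain and Mzb1 were higher in aged ones.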
